A study of Mus musculus with 6 samples.

Results

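Autophagy is described here through 36 genes of its core machinery, measured by RNA sequencing in mouse embryonic fibroblasts under low oxygen. The genes were chosen by symbol, with earlier results of these data known. Their rows were taken from the gene table of the series where the gene name equals the symbol. This found 34 of the 36 genes among 51482 measurements, and 33 of them were among the 14575 measurements that the authors tested. Atg2a was listed at 0 FPKM in both conditions and was not tested. Atg9a has a row only together with the neighbouring gene Abcb6, and Map1lc3b is not analysed here.

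The cells were wild-type fibroblasts immortalised with SV40, a virus whose oncoprotein, large T antigen, inactivates p53 and the retinoblastoma proteins, and both groups share this background. Each condition had 3 samples, kept for 16 h at 21% oxygen (normoxia) or at 0.5% oxygen (hypoxia). The study from which they come is about mTORC1, a kinase complex that also restrains autophagy, and about the mitochondrial protease YME1L. The comparison asks how low oxygen changes transcript levels. Levels are given in FPKM, read fragments divided by transcript length and by the number of fragments sequenced, so they can be compared between genes. The authors combined the samples of a condition, so the table has a single FPKM for each gene there. No value of a single sample and no SD can be given, and the depth is unknown. The words rose and fell are kept for genes with q below 0.05 in the authors' deposited table, where q is their p-value adjusted over all tested genes, and such genes are called.

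Autophagy encloses cytoplasm in a double membrane, the autophagosome, which then fuses with lysosomes for degradation. The ULK kinase complex starts the process, a class III phosphatidylinositol 3-kinase complex marks the membrane, and lipid supply through ATG9 and ATG2 lets it grow. Chains of ubiquitin-like conjugation then attach ATG8 proteins to the membrane, where cargo receptors bind them and tether their load. In fibroblasts autophagy runs at a basal rate and is known to respond to starvation and to low oxygen.

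Of the fibroblast marker genes, 9 of 10 stood above 1 FPKM in both conditions, and Lum, at 0.0123 and 0 FPKM, did not. Of these 10 genes 2 rose and 5 fell, with Vim going from 883 to 2249 FPKM, Col3a1 from 328 to 182 FPKM and Col1a2 from 140 to 91.7 FPKM. All 4 epithelial markers were also above 1 FPKM, and they moved both ways. Krt18 rose from 313 to 443 FPKM, Krt8 fell from 28.3 to 10.1 FPKM and Cdh1 from 5.93 to 3.76 FPKM, and Epcam, at 5.97 and 5.22 FPKM, was not called. The summed level of the 3 endothelial markers was 0.176 and 0.155 FPKM, and the blood cell markers Ptprc and Adgre1 did not exceed 0.00222 FPKM. The muscle marker Des stood at 11.04 and 9.46 FPKM, and the pluripotency marker Nanog at 1.33 and 1.23 FPKM. Neither Des nor Nanog was called. Myod1, also a muscle marker, and Pou5f1, also a pluripotency marker, were listed at 0 FPKM in both conditions. Cd68, a marker of macrophages that other cells also express in their lysosomes, rose from 1.32 to 2.27 FPKM. In bulk RNA fewer cells of a type and less RNA per cell cannot be told apart, and the part of these markers in the results was not tested.

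The autophagy genes of this list were more often higher than lower in hypoxia. Among the 33 tested, 18 rose, 6 fell and 9 were not called. The share called was 72.7%, against a background of 57.9% of all tested measurements, the share that rose was 54.5% against 28.9%, and the share that fell was 18.2% against 29.0%. Among the 10437 tested measurements whose mean FPKM lay within the range of the autophagy genes (2.61 to 315 FPKM), 63.8% were called, 32.8% higher and 31.0% lower. The median log2 fold change on the scale of log2(FPKM + 1) was 0.31, beside -0.0094 over all tested measurements. These shares and medians describe the list and are not a test of it. Not all further lists described below shared this balance. Other autophagy genes and regulators also had more rises than falls, and mitophagy receptors had as many. Fusion genes, and genes outside the list annotated with autophagosome assembly, had fewer rises than falls.

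On the deposited scale the rises were larger than the falls. The 18 genes that rose did so by 1.19-fold to 3.15-fold with a median of 1.67-fold, and the 6 that fell by 1.17-fold to 1.86-fold with a median of 1.23-fold. On that scale only Atg2b, Atg14, Atg12 and Wipi1, all higher, changed at least 2-fold, which is 4 of 33 genes, while 9.03% of all tested measurements rose and 9.87% fell by as much. Of the 6 falls, 4 (Ulk2, Becn1, Atg5 and Epg5) had q between 0.0292 and 0.0468 in the authors' deposited table and were no longer called at q below 0.01, which leaves Atg3 and Ambra1. At that threshold 18 of the 33 were called, against 48.7% of all tested measurements, and 2 were lower, against 24.2%. If both conditions are scaled to the same summed FPKM, every log2 ratio of FPKM in the table moves by -0.22, and the medians on the scale of log2(FPKM + 1) become 0.096 for the autophagy genes and -0.17 for all tested measurements. On that scale the rises and falls had nearly the same median size, 1.43-fold and 1.44-fold, Atg3 was 2.18-fold lower and Wipi1 1.91-fold higher.

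**Figure D1:**
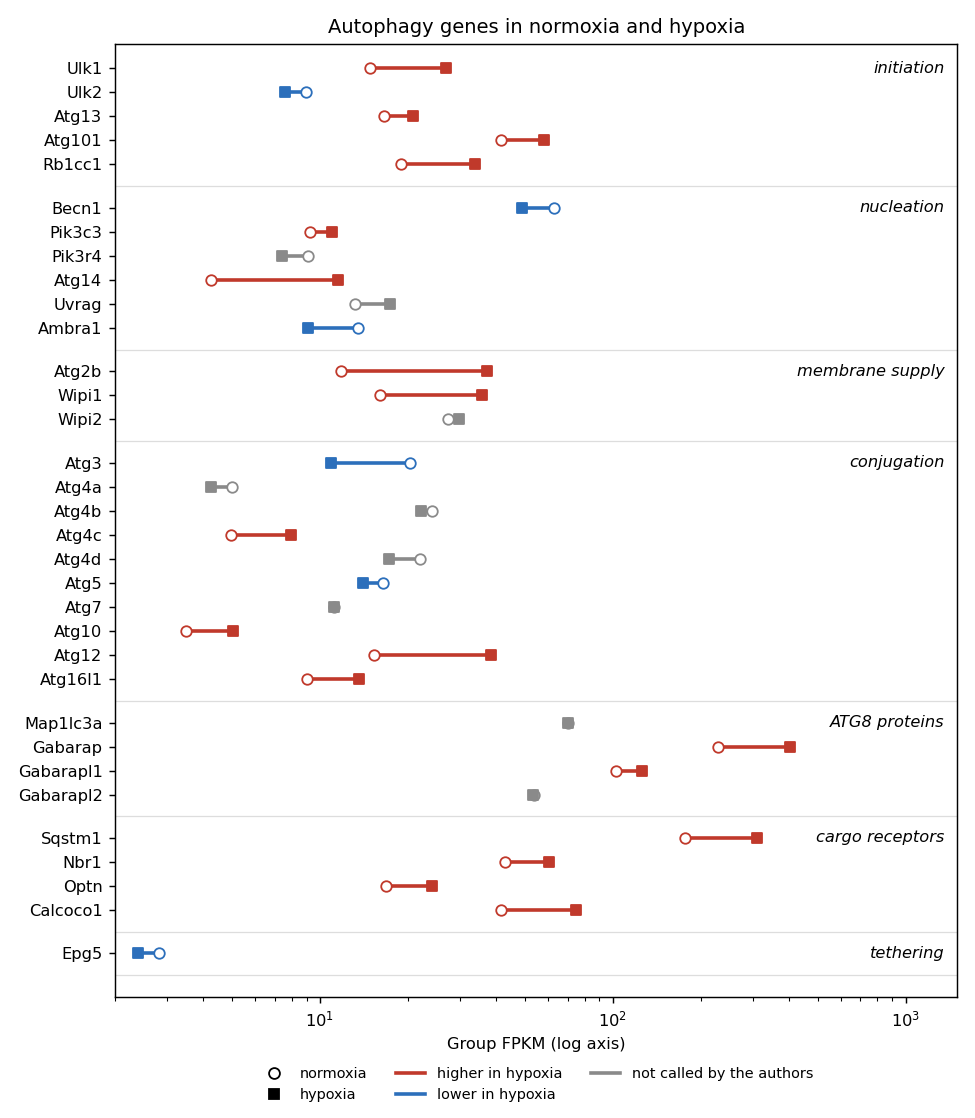
Group FPKM of each tested autophagy gene on a log axis, in normoxia (open circles) and hypoxia (squares), ordered by step and coloured by the authors' call, with no error bars because the table has 1 value per condition. The longest lines belong to Atg2b (11.8 to 37.1 FPKM), Atg14 (4.24 to 11.5 FPKM) and Atg12 (15.3 to 38.5 FPKM), and all 4 cargo receptor genes move to the right.

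All 5 genes of the initiation complex were called, 4 higher and 1 lower. Among all tested measurements 57.9% were called, 28.9% higher and 29.0% lower. Ulk1 (chromosome 5, 110784488 to 110810097 on GRCm38, minus strand), which encodes the kinase that starts autophagy, rose from 14.8 to 26.8 FPKM (1.82-fold, log2 fold change 0.86). Its close relative Ulk2 (chromosome 11, 61775649 to 61855073) fell from 8.95 to 7.60 FPKM (1.18-fold), a call near the threshold with q = 0.0468 in the authors' deposited table. The pair therefore moved apart, and the ratio of Ulk1 to Ulk2 went from 1.65 in normoxia to 3.53 in hypoxia. Ratios of this kind come from group values and carry no error.

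The scaffold genes of the same complex rose. Rb1cc1 (chromosome 1, 6206197 to 6276648), which encodes the large scaffold FIP200, went from 18.9 to 33.7 FPKM (1.79-fold). Atg101, whose product stabilises ATG13, rose from 41.6 to 58.4 FPKM (1.40-fold) and had the highest level of the complex in both conditions. Atg13, the adaptor that binds ULK1 to FIP200, rose least, from 16.5 to 20.7 FPKM (1.25-fold, q = 0.0130 in the authors' deposited table).

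The lipid kinase complex of nucleation was divided, with 2 genes higher, 2 lower and 2 not called. The share called was 66.7%, beside 57.9% of all tested measurements. Atg14 (chromosome 14, 47540893 to 47570649), which directs the kinase to sites of autophagosome formation, rose from 4.24 to 11.5 FPKM (2.71-fold, log2 fold change 1.44). In normoxia it had the lowest level of the 6 genes. Uvrag, whose product takes the place of ATG14 in a second form of the complex that acts in endosomal traffic, stood at 13.2 and 17.4 FPKM and was not called (q = 0.0864 in the authors' deposited table). The ratio of Atg14 to Uvrag was 0.321 in normoxia and 0.662 in hypoxia.

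Becn1 (chromosome 11, 101285952 to 101302286), the gene of the scaffold Beclin 1, which both forms of the complex contain, fell from 62.9 to 48.9 FPKM (1.28-fold, q = 0.0437 in the authors' deposited table). It was the most abundant of the 6 in both conditions. Pik3c3, which encodes the catalytic subunit VPS34, rose from 9.25 to 10.97 FPKM (1.19-fold), the smallest called rise among the autophagy genes. Pik3r4, which encodes the regulatory subunit of VPS34, stood at 9.07 and 7.43 FPKM, just outside the threshold with q = 0.0554 in the authors' deposited table. Ambra1 (chromosome 2, 91730134 to 91918849), the gene of a Beclin 1 partner that links it to ULK1, fell from 13.4 to 9.10 FPKM (1.48-fold).

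Genes that supply and mark the growing membrane showed the largest rise of the list. Atg2b (chromosome 12, 105616136 to 105685211), which encodes a lipid transfer protein that bridges the endoplasmic reticulum and the growing membrane, rose from 11.8 to 37.1 FPKM (3.15-fold, log2 fold change 1.66). Its log2 fold change on the scale of log2(FPKM + 1) lay at percentile 98.1 of all tested measurements. Its paralogue Atg2a is listed at 0 FPKM in both conditions, and such a 0 can be a failed estimate, so the ATG2 pair cannot be compared.

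Wipi1 (chromosome 11, 109573331 to 109611967), which encodes a reader of phosphatidylinositol 3-phosphate, rose from 16.0 to 35.8 FPKM (2.23-fold). Wipi2, the paralogue that recruits ATG16L1, stood at 27.5 and 29.9 FPKM and was not called (q = 0.385 in the authors' deposited table). The order of the pair changed, since the ratio of Wipi1 to Wipi2 was 0.583 in normoxia and 1.19 in hypoxia. The measurement that Atg9a, the gene of the only membrane-spanning core ATG protein of most tissues, shares with Abcb6 went from 31.4 to 68.5 FPKM (2.18-fold), and the share of each gene in it is unknown.

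**Figure D2:**
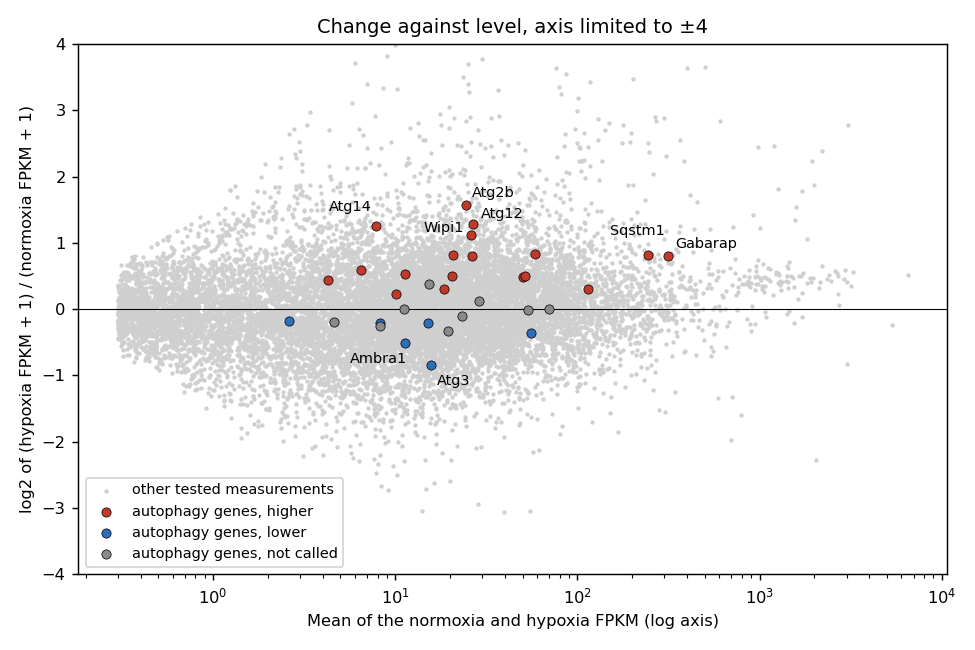
Log2 of (hypoxia FPKM + 1) over (normoxia FPKM + 1) against the mean FPKM of the 2 conditions on a log axis, for tested measurements with a mean above 0.3 FPKM (grey; 8 lie outside the axis) and for the autophagy genes, coloured by the authors' call. Atg2b, Atg12, Atg14 and Wipi1 lie above 1, Atg3 is the lowest autophagy gene, and Sqstm1 and Gabarap are the most abundant.

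The conjugation machinery held the largest fall of the list, Atg3, beside the third largest rise, Atg12. Calls were made for 6 of its 10 genes, with 4 higher, 2 lower and the remaining 4 without a call. The rate of 60% was close to the 57.9% of all tested measurements. By direction, 40% were higher and 20% lower, against 28.9% and 29.0%. Atg12 (chromosome 18, 46730144 to 46741580), which encodes the ubiquitin-like protein of the first conjugation chain, rose from 15.3 to 38.5 FPKM (2.51-fold). Atg5, whose product is the main partner to which ATG12 is joined, fell from 16.4 to 14.0 FPKM (1.17-fold, q = 0.0420 in the authors' deposited table). The ratio of Atg12 to Atg5 was 0.935 in normoxia and 2.75 in hypoxia. Atg16l1, the gene of the third part of that complex, rose from 9.05 to 13.6 FPKM (1.497-fold).

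The enzymes that drive the chains did not move together. Atg3 (chromosome 16, 45158785 to 45188538), which encodes the E2-like enzyme that passes ATG8 proteins to phosphatidylethanolamine, fell from 20.3 to 10.9 FPKM (1.86-fold, log2 fold change -0.90). Atg10, the E2-like enzyme that passes ATG12 to ATG5, rose from 3.48 to 5.04 FPKM (1.45-fold). Atg7, the E1-like enzyme that serves both chains, stood at 11.1 and 11.2 FPKM and was not called (q = 0.970 in the authors' deposited table). Relative to Atg7, Atg3 therefore went from a ratio of 1.82 to 0.974.

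Of the 4 proteases that trim ATG8 proteins and free them from membrane, Atg4c alone was called. Of all tested measurements, 57.9% were called. Atg4c rose from 4.97 to 7.95 FPKM (1.60-fold), and its share of the summed FPKM of the 4 genes went from 8.87% to 15.4%. Atg4b, the main protease for LC3, stood at 24.1 and 22.2 FPKM, and Atg4d at 21.95 and 17.2 FPKM. Atg4a stood at 5.01 and 4.23 FPKM. Its transcript is 99.3% identical over 2115 bases to that of Atg4a-ps, listed at 0.465 and 0.430 FPKM, so reads could be divided between them. The difference between Atg4c and the other ATG4 genes was not tested.

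Among the ATG8 genes, whose products coat the autophagosome membrane and bind cargo receptors, 2 of the 4 measured rose, both of the GABARAP branch. All of the 4 but Map1lc3a belong to that branch. The share called was 50%, beside 57.9% of all tested measurements, of which 28.9% rose. Gabarap (chromosome 11, 69991143 to 69994951) rose from 229 to 401 FPKM (1.75-fold) and was the most abundant autophagy gene measured. Gabarapl1 rose from 102 to 126 FPKM (1.23-fold, q = 0.00561 in the authors' deposited table). Gabarapl2, at 53.9 and 53.4 FPKM, was not called (q = 0.918 in the authors' deposited table), and neither was Map1lc3a, the LC3 gene measured here, at 70.0 and 70.1 FPKM (q = 0.987 in the same table).

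The summed level of these 4 genes was 455 FPKM in normoxia and 650 FPKM in hypoxia. Gabarap made up 50.3% of the sum in normoxia and 61.7% in hypoxia, while the share of Map1lc3a went from 15.4% to 10.8%. The sum leaves out Map1lc3b. Gabarapl2 has 3 processed pseudogenes with transcripts at least 96.6% identical over 349 bases or more, and none of them exceeded 1.73 FPKM.

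**Figure D3:**
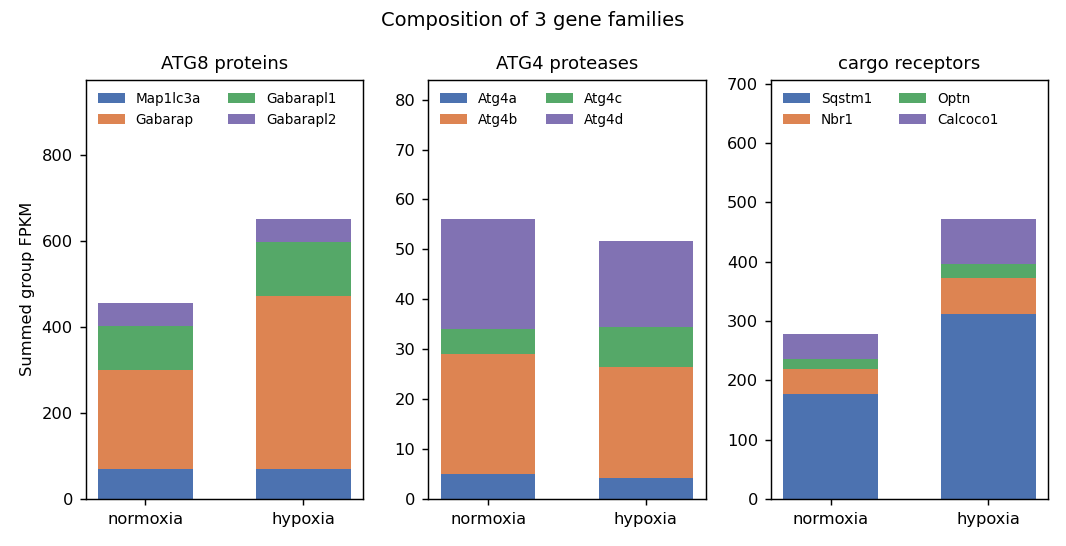
Summed group FPKM of the ATG8 genes, the ATG4 protease genes and the cargo receptor genes in normoxia and hypoxia, with each gene as a coloured segment, no error bars and a separate vertical axis for each of the 3 families. The ATG8 bar grows from 455 to 650 FPKM mainly through the Gabarap segment, the ATG4 bar stands at 56.0 and 51.6 FPKM, and the cargo receptor bar grows from 277 to 471 FPKM.

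All 4 cargo receptor genes rose, where 28.9% of all tested measurements did. Sqstm1 (chromosome 11, 50199366 to 50210827), which encodes p62, the receptor that joins ubiquitinated cargo to ATG8 proteins and is itself degraded by autophagy, rose from 176 to 311 FPKM (1.77-fold). Calcoco1, which encodes a receptor for the endoplasmic reticulum and Golgi, rose from 41.6 to 75.1 FPKM (1.81-fold). Nbr1, a p62 relative with a part in the removal of peroxisomes, rose from 42.7 to 60.7 FPKM (1.42-fold), and Optn, the gene of the mitophagy receptor optineurin, from 16.9 to 24.2 FPKM (1.43-fold). Sqstm1 held 63.5% of the summed level of the 4 genes in normoxia and 66.1% in hypoxia. In order of level it was followed by Nbr1, Calcoco1 and Optn in normoxia, and Calcoco1 stood above Nbr1 in hypoxia. Epg5, whose product tethers autophagosomes to late endosomes and lysosomes, fell from 2.83 to 2.39 FPKM (1.18-fold) and had the lowest level of all tested autophagy genes.

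Promoter sequence is shown for 4 of these genes, 2 receptor genes that rose, Calcoco1 and Optn, and 2 genes of other steps that did not, Atg5, which fell, and Gabarapl2, which was not called. They were taken from the 12 of 32 windows of the autophagy genes in which no exon is annotated. Each is the 250 bases before the RefSeq start on GRCm38.p6, 5′ to 3′ on the strand of the gene, at chr15:102722179-102722428 (minus strand), chr2:5064118-5064367 (minus strand), chr10:44268089-44268338 (plus strand) and chr8:111940453-111940702 (plus strand). Capitals mark ACGTG and GCGTG on either strand, the core letters bound by the hypoxia-inducible factors. They include the palindrome CACGTG, the E-box core that MiT factors such as TFEB bind, which holds ACGTG on both strands.
Calcoco1: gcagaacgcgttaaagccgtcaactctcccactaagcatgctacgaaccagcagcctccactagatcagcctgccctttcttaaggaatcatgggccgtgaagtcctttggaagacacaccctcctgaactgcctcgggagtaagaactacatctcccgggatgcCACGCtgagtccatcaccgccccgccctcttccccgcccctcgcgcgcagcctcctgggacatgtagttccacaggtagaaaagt
Optn: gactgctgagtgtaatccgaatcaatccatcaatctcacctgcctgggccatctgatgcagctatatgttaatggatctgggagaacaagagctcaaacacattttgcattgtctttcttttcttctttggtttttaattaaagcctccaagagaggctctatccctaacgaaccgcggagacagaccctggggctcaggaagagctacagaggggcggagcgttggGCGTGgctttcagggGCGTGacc
Atg5: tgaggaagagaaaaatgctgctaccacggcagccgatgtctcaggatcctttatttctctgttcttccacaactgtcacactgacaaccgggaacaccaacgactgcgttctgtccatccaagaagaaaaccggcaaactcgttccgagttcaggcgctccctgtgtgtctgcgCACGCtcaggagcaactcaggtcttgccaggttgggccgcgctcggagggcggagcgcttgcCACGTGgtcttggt
Gabarapl2: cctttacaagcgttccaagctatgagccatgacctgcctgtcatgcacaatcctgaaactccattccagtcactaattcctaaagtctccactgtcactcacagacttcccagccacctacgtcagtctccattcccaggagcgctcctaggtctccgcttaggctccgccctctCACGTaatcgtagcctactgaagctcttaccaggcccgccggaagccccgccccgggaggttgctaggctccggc

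The window of Calcoco1 held GCGTG on the opposite strand 85 bases before the start. The window of Optn held GCGTG on the strand of the gene, 23 and 8 bases before the start. The window of Atg5 held CACGTG, beginning 14 bases before the start, and GCGTG on the opposite strand at 76 bases. The window of Gabarapl2 held ACGTG on the opposite strand at 75 bases. Such matches are not binding sites, and both the genes that rose and those that did not held at least 1.

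Of the 26 tested autophagy genes with an entry in the promoter table, 23 (88.5%) held ACGTG or GCGTG in a window. The share was 61.9% among the 9590 tested genes with an entry and 41.5% among all 27025 genes of the table. By call it was 11 of 14 genes that rose, 4 of 4 that fell and 8 of 8 not called. CACGTG was found in 3 of the 26 (11.5%, against 9.81% of tested genes), namely Atg3 and Atg5, which fell, and Atg7. The window of Atg7 precedes an internal RefSeq start, 27999 bases inside the gene as annotated by GENCODE. The starts for Atg4b, Atg14, Wipi2, Wipi1 and 1 window of Nbr1 lay 505 to 3405 bases inside. The start for 1 window of Atg4a lay at -3062 bases, before the annotated gene. For 24 of 32 windows the bases after the start were found in an annotated transcript of the gene. Whether the windows are the promoters used in these cells was not tested. A gene with several windows counts once, and the median number of CG dinucleotides per window was 15.5 for the autophagy genes and 17 for the tested genes.

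A further list of autophagy genes outside the core held phosphoinositide phosphatases and receptors of selective autophagy, among others. Of 20 tested, 12 rose, 3 fell and 5 were not called, which is 60.0% higher and 15.0% lower beside 28.9% and 29.0% of all tested measurements. Their median log2 fold change was 0.31 on the scale of log2(FPKM + 1). Tex264, which encodes a receptor for autophagy of the endoplasmic reticulum, rose from 32.5 to 83.4 FPKM (2.57-fold). Tollip, the gene of a ubiquitin-binding adaptor, rose from 18.3 to 42.9 FPKM (2.34-fold), and Rubcn, the gene of the inhibitor Rubicon, from 12.8 to 27.9 FPKM (2.18-fold). Mtmr3, which removes the lipid that VPS34 makes, rose from 19.1 to 40.1 FPKM (2.098-fold). Rubicon and MTMR3 are both known to act against autophagy. Trp53inp2 and Tecpr1 fell 1.74-fold and 1.75-fold, and Tecpr1 is also counted among the fusion genes below.

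Among genes for the fusion of autophagosomes with lysosomes, Ykt6 fell most. Of 15 tested, 3 rose, 6 fell and 6 were not called, and the median was -0.19. The share called, 60.0%, was near the 57.9% of all tested measurements. Ykt6, the gene of a SNARE protein that works in several membrane fusion steps, fell from 55.01 to 16.2 FPKM (3.40-fold), more than any of the core autophagy genes. Tgfbrap1, which encodes a subunit of the CORVET tethering complex, fell from 5.90 to 3.07 FPKM (1.92-fold), and the adaptor gene Plekhm1 from 5.14 to 3.27 FPKM (1.57-fold). The HOPS subunit genes Vps11 and Vps39 rose 1.44-fold and 1.39-fold. Stx17, the autophagosomal SNARE gene, stood at 10.6 and 8.82 FPKM and was not called (q = 0.201 in the authors' deposited table). The difference between this list and the core list was not tested.

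**Figure D4:**
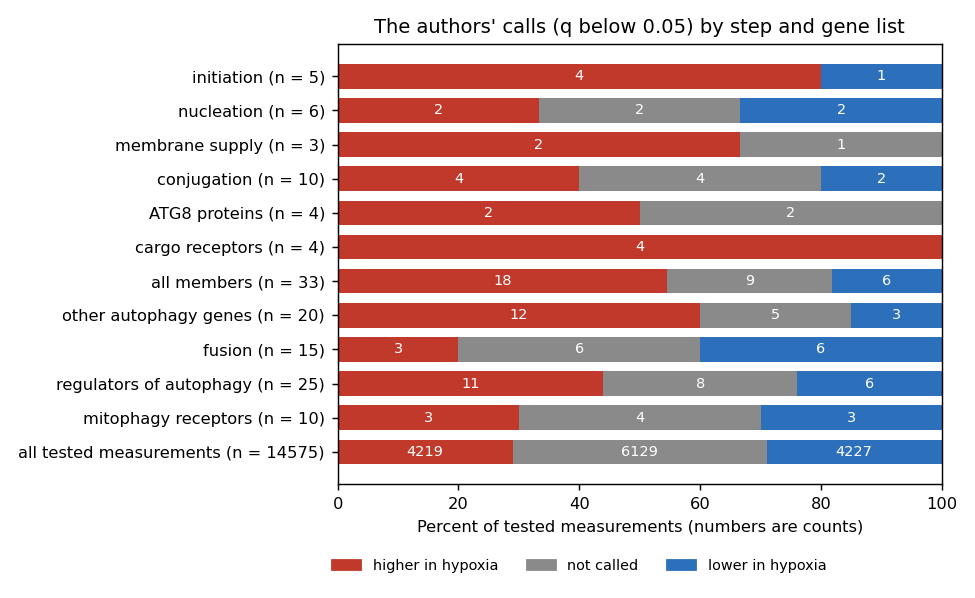
Percent of tested measurements that the authors called higher in hypoxia, not called, or called lower, for each step, for the core list of 33 genes (all members), for 4 further lists and for all tested measurements, with counts inside the bars. The core list has 18 higher and 6 lower, fusion genes have 3 higher and 6 lower, and all tested measurements are nearly even at 4219 and 4227.

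Regulators upstream of the machinery included larger changes than any in the machinery itself. Of 25 tested, 11 rose (44.0%), 6 fell (24.0%) and 8 were not called. Among all tested measurements 28.9% rose and 29.0% fell. Foxo3, which encodes a transcription factor that activates autophagy genes, rose from 10.2 to 48.6 FPKM (4.76-fold), and Ddit3, the gene of the stress factor CHOP, from 36.4 to 175 FPKM (4.81-fold). Bnip3 and Bnip3l, mitophagy receptors that also bind BCL2 proteins, rose 7.57-fold and 5.20-fold. Rptor, which encodes the mTORC1 subunit raptor, fell from 10.2 to 4.93 FPKM (2.07-fold), and Mitf from 0.343 to 0.163 FPKM. Of the other MiT factor genes, Tfe3 rose from 25.3 to 33.2 FPKM, and Tfeb, at 19.1 and 22.2 FPKM, was not called (q = 0.0618 in the authors' deposited table). Tfe3, Tfeb and Stx17 were named after their values were seen.

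Mitophagy receptors and the PINK1 pathway share Ambra1 with the core list, and Bnip3 and Bnip3l with the regulators. They had 3 of 10 tested genes higher, 3 lower and 4 not called, near the shares of all tested measurements (28.9% and 29.0%). Besides Bnip3 and Bnip3l, Pink1 rose from 19.1 to 31.8 FPKM (1.66-fold), and Nlrx1 fell 1.62-fold.

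Some of the autophagy genes overlap a gene on the opposite strand, and the sources used here do not state whether the authors' counting used the strand. Becn1 shares 43.9% of its exonic bases with Cntd1, which stood at 0.385 and 0.652 FPKM. Atg4d shares 19.3% with Kri1, which fell from 18.9 to 11.6 FPKM. Sqstm1 shares 17.3% with Mrnip (14.6 and 16.5 FPKM), and Atg2b shares 2.85% with Gskip (10.7 and 7.39 FPKM), neither of which was called. In the authors' deposited table Becn1 also has the same locus as Coa3, which fell from 58.4 to 28.5 FPKM. Atg4b there has the same locus as Thap4, which rose from 34.8 to 53.0 FPKM. The part of these partners in the values was not tested.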

How the data were processed

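RNA was poly-A selected and made into stranded libraries from 3 normoxia and 3 hypoxia samples, per the labels' protocols. The submitters' processing notes name Cuffdiff 2.2.1, Cufflinks, HISAT2 2.1.0, StringTie 1.3.4d and the build GRCm38. The authors deposited 1 FPKM per gene and group, a log2 fold change, a test statistic (a score, not used here), a p-value and a q-value, per the file headers. The sources used here do not state how libraries were scaled.

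Rows repeating a measurement under several identifiers were counted once. Fold changes recomputed from the deposited FPKM differed from the deposited log2 values by at most 1.2e-05. Fits to single samples were replaced by the authors' calls at q below 0.05, because the table holds 1 value per group. The smallest q, 0.000139, is shared by 5148 tested measurements, 15 of them autophagy genes, so q does not rank these. A pseudocount of 1 was used on the log2 scale, which understates the change of low genes. The p-values are those of the authors' comparison of the 2 conditions, and they do not give the spread between samples. The series design calls the samples of a condition biological replicates.

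Every listed gene was named, and from other lists up to 4 called genes with the largest change and up to 2 against the majority. The members and lists were chosen with earlier results of these data known. Alternatives were a q of 0.01, fold minimums of 1.5 and 2, filters of 1 and 5 FPKM, pseudocounts of 0.1 and 0, 2 rescalings, and shared measurements. Gene coordinates are 1-based from GENCODE M21 (GRCm38). Promoters are RefSeq windows, found for 29 of the 36 genes. Similar transcripts were sought with BLAST 2.17.0 at 95% identity over at least 200 bases. Counting and summary steps were tested on simulated data. Python 3.11.15, pandas 2.3.3 and numpy 2.4.6 were used.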

Additional observations from a re-analysis of the deposited data

How the results depend on the processing

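No paired analysis was possible because the table holds 1 value per group, and for the same reason no sample could be left out. Of the 24 called autophagy genes, 18 were called at q below 0.01, 16 higher and 2 lower. At that threshold 48.7% of all tested measurements were called and 24.2% were lower. Requiring at least 1.5-fold left 11 (10 higher, 1 lower), and requiring at least 2-fold left 4 (4 higher, 0 lower). At 2-fold, 9.03% of all tested measurements rose and 9.87% fell. Their share at 1.5-fold was not counted, so the 11 have no background. Filters of 1 and 5 FPKM left 24 and 22 called genes, and with the shared Atg9a measurement there were 25. The share of all tested measurements called under these filters was not counted, so these counts have no background either. The median log2 fold change of 0.31 lay between 0.31 and 0.34 under both other pseudocounts, both filters, the median of ratios and shared measurements, and was 0.096 with equal summed FPKM, where that of all tested measurements was -0.17. Equal summed FPKM moves all log2 ratios alike, so genes near 0 had to change sign: Map1lc3a (-0.22), Wipi2 (-0.097) and Atg7 (-0.20), none of them called. With it, 3 called genes were at least 2-fold higher and 1 was at least 2-fold lower. The calls are still those of the authors on the deposited scale. The share of all tested measurements was not counted on the rescaled values, so these counts have no background. The depth is unknown, so what it limits cannot be stated.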

Other observations

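A further set was formed after values had been seen, from the 18 tested genes outside the core list that the authors' deposited table annotates with the term autophagosome assembly and that have a measurement of their own. Of these 2 rose (11.1%), 6 fell (33.3%) and 10 were not called, beside 28.9% and 29.0% of all tested measurements. Their median log2 fold change was -0.011 on the scale of log2(FPKM + 1). The balance thus differed from that of the core list, and that difference was not tested. The set overlaps lists described above, since Atg16l2 and Trp53inp2 are also counted among the other autophagy genes, and Rab7 among the fusion genes. Atg9b, the paralogue of Atg9a with a narrower tissue range, rose from 1.4996 to 12.4 FPKM, a log2 fold change of 3.05, more than any gene of the core list. Atg16l2, the paralogue of Atg16l1, rose from 15.7 to 26.04 FPKM. The genes that fell were the interferon-induced GTPase gene Irgm1 (10.6 to 5.05 FPKM), Rab23 (14.3 to 8.37 FPKM), Ubxn2a (22.2 to 12.9 FPKM), Pacs2 (19.9 to 12.4 FPKM), Nsfl1c (102 to 79.99 FPKM) and Trp53inp2. The last encodes a nuclear protein that binds ATG8 proteins.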
